A study of Homo sapiens with 8 samples.

Results

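The genes described here are HK2, LDHA, BNIP3 and VEGFA, which stand for glycolysis and the response to low oxygen. They are 4 of the 14884 genes that the array measured under a symbol, and each had 1 probe set, found by its symbol in the probe annotation: 16881838 for HK2, 16722603 for LDHA, 16719644 for BNIP3 and 17009093 for VEGFA. All 4 were among the 8930 genes bright enough to be tested, that is, with a mean log2 intensity at or above the 40th percentile of all genes, 5.18. They were picked with their values on these arrays known, so their levels and differences are given as a description and carry no p-value.

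The study lowered TOX, an HMG-box protein of the nucleus with a role in thymic T cell development, in 2 established human lines of T cell acute lymphoblastic leukaemia (T-ALL), CCRF-CEM and HPB-ALL. Each line gave 4 arrays: cells with the short hairpin RNA shTOX-1, cells with another hairpin against TOX, shTOX-2, cells with a scramble hairpin, and untransduced cells. The 3 transduced kinds had been spinoculated with virus, selected with puromycin and kept for at least 2 weeks; how the untransduced cells were kept meanwhile is not stated apart. Each combination of line and construct is 1 array, nothing states that arrays came from separate cultures, so p-values below rest on the spread among these 8 arrays alone, which may be technical in part.

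In glycolysis, cells split glucose into pyruvate. HK2 encodes hexokinase 2, which phosphorylates glucose in the first step and can sit on the outer mitochondrial membrane. LDHA encodes the lactate dehydrogenase subunit that favours turning pyruvate into lactate. When oxygen is short, the factor HIF-1, made of HIF1A and ARNT, escapes hydroxylation by EGLN1 and destruction through VHL, and it raises transcription of many genes, HK2, LDHA, BNIP3 and VEGFA among them. BNIP3 encodes a protein of the outer mitochondrial membrane that recruits the autophagy machinery to mitochondria (mitophagy) and is related to the BCL2 family. VEGFA encodes a secreted growth factor that drives the growth of blood vessels. In proliferating T cells and leukaemic cells, glycolytic genes are also raised in normal oxygen, among others by MYC and by mTOR signalling.

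HIF-1 binds a short core, ACGTG or GCGTG, and the DNA just upstream is shown for HK2, LDHA and BNIP3, the 3 of the 4 genes matched in the RefSeq promoter table. VEGFA was not matched. Each stretch holds the 250 bases before the annotated start of the gene, 5′ to 3′ on the gene's own strand, from RefSeq on GRCh38.p14: chr2:74833877-74834126 on the plus strand for HK2, chr11:18394313-18394562 on the plus strand for LDHA and chr10:131981924-131982173 on the minus strand for BNIP3. Capitals mark the core on either strand, written CACGT or CACGC where it lies on the opposite strand, and CACGTG where ACGTG overlaps its own reverse complement.
HK2: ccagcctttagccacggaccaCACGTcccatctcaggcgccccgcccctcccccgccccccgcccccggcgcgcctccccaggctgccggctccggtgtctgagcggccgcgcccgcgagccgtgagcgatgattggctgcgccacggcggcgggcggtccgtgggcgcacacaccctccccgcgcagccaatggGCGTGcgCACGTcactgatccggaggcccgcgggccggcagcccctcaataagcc
LDHA: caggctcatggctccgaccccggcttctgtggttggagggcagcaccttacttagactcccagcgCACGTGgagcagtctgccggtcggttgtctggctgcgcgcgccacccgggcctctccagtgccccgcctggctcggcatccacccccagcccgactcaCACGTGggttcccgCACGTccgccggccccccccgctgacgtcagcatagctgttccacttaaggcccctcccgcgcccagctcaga
BNIP3: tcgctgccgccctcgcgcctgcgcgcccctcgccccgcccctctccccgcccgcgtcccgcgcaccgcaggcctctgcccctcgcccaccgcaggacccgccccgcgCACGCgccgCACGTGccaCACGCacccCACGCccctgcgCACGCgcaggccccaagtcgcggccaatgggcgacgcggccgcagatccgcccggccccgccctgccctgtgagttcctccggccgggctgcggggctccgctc
The core occurred at 3 places upstream of HK2, 3 upstream of LDHA and 5 upstream of BNIP3, counting CACGTG as 1 place. Of all 35116 such windows in the RefSeq promoter table, 43.2% held at least 1 place, 5.86% held 3 or more and 0.8% held 5 or more. These windows are rich in G and C, 76.8% of bases for HK2, 69.6% for LDHA and 81.6% for BNIP3, and the core contains CG. CACGTG itself was present in the stretches shown at 2 places for LDHA, 1 for BNIP3 and 0 for HK2, against 6.34% of all windows with any. Upstream of another annotated start, HK2 had the core at 4 places, 2 of them CACGTG, and LDHA had it at 1 place with no CACGTG. A match of letters does not show binding.

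TOX, the targeted gene, stood at 28.0% to 77.0% of its scramble level in the shTOX arrays, with shTOX-2 the lower hairpin in each line. Array medians lay between 4.62 and 4.71, and so could not show a shift common to all genes. Over the tested genes, Pearson's r was 0.949 to 0.985 within a line and 0.876 to 0.908 across the lines. The T cell markers present under their symbols (6 of 9 listed, with LCK, ZAP70, CD247, CD2, CD5 and CD7) summed to an intensity of 3364 to 4448 in CCRF-CEM and 771 to 1591 in HPB-ALL. Marker sums lay between 50 and 71 for B cells, 70 and 319 for myeloid cells, and 103 and 137 for erythroid cells and megakaryocytes. They lay between 222 and 352 for epithelium (EPCAM, KRT8 and KRT18). Each list had 2 to 4 genes measured, and no fibroblast marker on the lists was measured under its symbol. The CD3 genes, HIF1A, SLC2A1 and PDK1 were not analysed here.

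**Figure D1:**
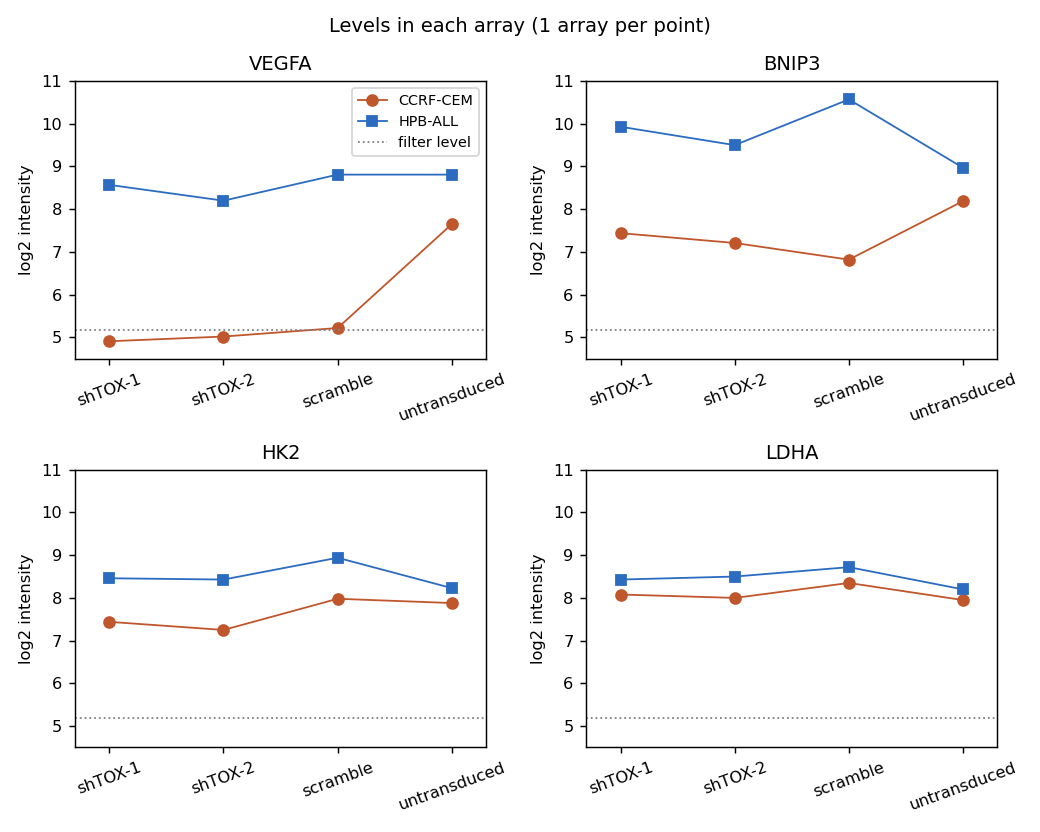
Log2 intensity (vertical axis) of VEGFA, BNIP3, HK2 and LDHA on each of the 8 arrays, by construct (horizontal axis, shTOX-1, shTOX-2, scramble, untransduced); circles are CCRF-CEM, squares HPB-ALL, each point is 1 array, and lines join points of the same line of cells. The dotted line is the filter level of 5.18; VEGFA in CCRF-CEM lies near it except in the untransduced array, and BNIP3 in HPB-ALL peaks in the scramble array.

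HK2 was lower with both shTOX hairpins than with scramble in both lines. In CCRF-CEM its log2 level was 7.44 with shTOX-1, 7.25 with shTOX-2, 7.98 with scramble and 7.88 in untransduced cells. In HPB-ALL it was 8.46 with shTOX-1, 8.43 with shTOX-2, 8.94 with scramble and 8.23 in untransduced cells. The shTOX arrays thus lay below both controls in CCRF-CEM, whereas in HPB-ALL they lay between the scramble and the untransduced array. As a linear share of scramble, CCRF-CEM kept 68.7% of HK2 signal under shTOX-1 and 60.5% under shTOX-2, and HPB-ALL kept 71.6% and 70.1%. The hairpins stood 0.18 apart in CCRF-CEM and 0.03 apart in HPB-ALL, so of the neighbours in the order of levels only scramble and untransduced CCRF-CEM (0.10 apart) were closer than the hairpins of their line. Because these are bulk samples, a lower level in each cell and a smaller share of cells with the transcript cannot be told apart.

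LDHA varied least within a line, by 0.39 in CCRF-CEM and by 0.52 in HPB-ALL. In CCRF-CEM it had 8.08 with shTOX-1, 8.0 with shTOX-2, 8.35 with scramble and 7.95 in untransduced cells. In HPB-ALL it had 8.43 with shTOX-1, 8.50 with shTOX-2, 8.72 with scramble and 8.20 in untransduced cells. The order of the arrays was the same in both lines apart from the order of the hairpins: scramble highest, then the shTOX arrays, then untransduced cells. Relative to scramble, CCRF-CEM kept 83.0% of LDHA signal under shTOX-1 and 78.5% under shTOX-2, and HPB-ALL kept 81.8% and 86.0%. The shTOX-2 and untransduced arrays of CCRF-CEM lay 0.05 apart, less than the 0.08 between the hairpins.

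BNIP3 moved in opposite directions in the lines. In CCRF-CEM its log2 level was 7.44 with shTOX-1, 7.21 with shTOX-2, 6.82 with scramble and 8.19 in untransduced cells. In HPB-ALL it was 9.93 with shTOX-1, 9.50 with shTOX-2, 10.57 with scramble and 8.97 in untransduced cells. The untransduced array was therefore the highest in CCRF-CEM and the lowest in HPB-ALL, and the scramble array the reverse. Over all tested genes the untransduced array was the highest of the CCRF-CEM arrays for 30.5% and the lowest of the HPB-ALL arrays for 33.6%, and the scramble array was the lowest in CCRF-CEM for 19.3% and the highest in HPB-ALL for 21.8%. Scramble BNIP3 was 38.8% of the untransduced level in CCRF-CEM and 303.5% of it in HPB-ALL. Against scramble, the shTOX-1 and shTOX-2 arrays stood at 153.6% and 131.3% in CCRF-CEM, and at 64.0% and 47.4% in HPB-ALL. The hairpins differed by 0.23 in CCRF-CEM and 0.43 in HPB-ALL, and no other neighbours in the order of levels lay closer than that in either line.

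VEGFA showed the widest range within a line of the 4 genes, 2.74 in CCRF-CEM, and it came from 1 array. In CCRF-CEM its log2 level was 4.91 with shTOX-1, 5.02 with shTOX-2, 5.22 with scramble and 7.65 in untransduced cells. In HPB-ALL it was 8.57 with shTOX-1, 8.20 with shTOX-2, 8.81 with scramble and 8.81 in untransduced cells. Both shTOX arrays of CCRF-CEM were below the filter level of 5.18 and the scramble array just above it, so the fold against them is limited by the background of the array. With that limit, the 3 transduced CCRF-CEM arrays averaged 5.05 ± 0.16 (SD, n = 3), and the untransduced array was 6.08-fold brighter. In HPB-ALL the transduced arrays averaged 8.53 ± 0.31 (SD, n = 3), and the untransduced array was 1.22-fold brighter. Relative to scramble, VEGFA signal under shTOX-1 and shTOX-2 was 80.7% and 87.3% for CCRF-CEM, and 84.3% and 65.5% for HPB-ALL. In HPB-ALL the hairpins stood 0.36 apart, which is more than separated shTOX-1 from either control (0.25).

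On average over both lines, the shTOX arrays lay below scramble for HK2, LDHA, BNIP3 and VEGFA. These genes were picked with their values known, so the standard errors given here describe spread and are not a test. In CCRF-CEM, TOX stood at 77.0% of scramble with shTOX-1 and 44.6% with shTOX-2, and in HPB-ALL at 74.2% and 28.0%. The standard errors take these unequal hairpins as replicates. With the 3 treatments and the line as terms of a limma model, the shTOX minus scramble difference was -0.57 ± 0.17 (SE) for HK2, -0.28 ± 0.12 for LDHA, -0.18 ± 0.45 for BNIP3 and -0.34 ± 0.42 for VEGFA on the log2 scale. HK2, LDHA and VEGFA had both shTOX arrays below scramble in both lines, a pattern of 9.69% of all tested genes. For VEGFA the CCRF-CEM part of it (4.91 and 5.02 against 5.22) lay near the filter level of 5.18. BNIP3 had both shTOX arrays above scramble in CCRF-CEM and below it in HPB-ALL, a pattern of 12.9% (the opposite one, 14.5%). Over all tested genes, limma called 0.0% in this comparison at a Benjamini-Hochberg adjusted p under 0.05, and 5.14% (459) passed an unadjusted p under 0.05. Without the CCRF-CEM scramble array the BNIP3 difference was -1.13 and without the HPB-ALL scramble array 0.77, and for VEGFA the same omissions gave -0.80 and 0.12. The difference for HK2 stayed between -0.62 and -0.48 and that for LDHA between -0.31 and -0.25 whichever array was left out.

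The difference between the lines in the shTOX minus scramble value was 1.37 ± 0.33 (SE) for BNIP3, made of 0.51 in CCRF-CEM and -0.86 in HPB-ALL. In this fit the residual spread came only from the hairpins within each line. Its standard errors and p-values therefore do not measure how scramble arrays vary. For VEGFA it was 0.18 ± 0.30, for HK2 -0.14 ± 0.26 and for LDHA -0.05 ± 0.25. Over all tested genes, limma called 0.0% in this contrast at an adjusted p under 0.05, with 795 (8.9%) at an unadjusted p under 0.05.

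Set against untransduced cells, with which the same shTOX arrays are compared again, the 4 genes went different ways. The shTOX minus untransduced difference was -1.56 ± 0.42 (SE) for VEGFA, -0.06 ± 0.45 for BNIP3, -0.16 ± 0.17 for HK2 and 0.18 ± 0.12 for LDHA. Over all tested genes, 5.64% were called lower in this comparison. The VEGFA value was -0.40 without the untransduced CCRF-CEM array and -2.72 without the untransduced HPB-ALL array. The scramble minus untransduced difference was -1.22 ± 0.49 for VEGFA, 0.12 ± 0.51 for BNIP3, 0.41 ± 0.20 for HK2 and 0.46 ± 0.14 for LDHA, and 1.06% of all tested genes were called. Leaving out the untransduced array of CCRF-CEM changed this to 1.15 for BNIP3, 0.76 for HK2 and -0.06 for VEGFA, and leaving out that of HPB-ALL to -0.91, 0.05 and -2.38. The untransduced arrays also differed from the transduced ones in the summed intensity of 16 G2 and mitosis genes, which was 26958, 29564 and 29452 in the shTOX-1, shTOX-2 and scramble arrays of CCRF-CEM and 16667 in its untransduced array. In HPB-ALL the sums were 24089, 26377 and 24164 in the transduced arrays and 15095 in the untransduced array. The part of this in the values above was not tested.

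All 4 genes were lower in CCRF-CEM than in HPB-ALL. The CCRF-CEM minus HPB-ALL difference was -2.90 ± 0.35 (SE) for VEGFA, -2.33 ± 0.36 for BNIP3, -0.88 ± 0.14 for HK2 and -0.37 ± 0.10 for LDHA. For VEGFA, BNIP3 and HK2 every CCRF-CEM array lay below every HPB-ALL array, as for 14.2% of all tested genes, and for LDHA the ranges overlapped (7.95 to 8.35 in CCRF-CEM, 8.20 to 8.72 in HPB-ALL). Over all tested genes, limma called 17.6% lower in CCRF-CEM. The size of the gap depended on the construct: the BNIP3 difference between the lines was -3.75 with scramble and -0.79 in untransduced cells, and that of VEGFA -3.59 and -1.16.

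**Figure D2:**
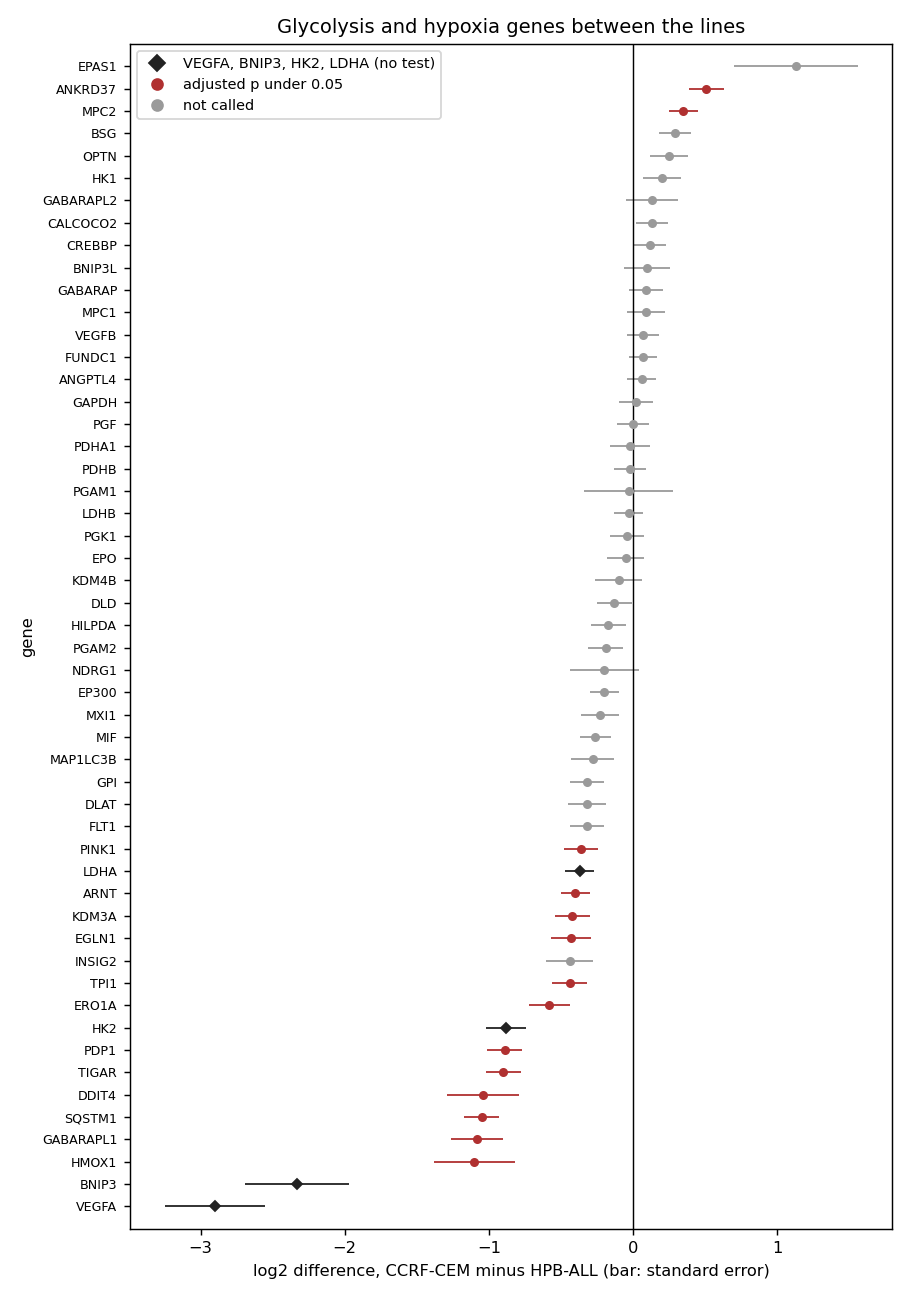
Log2 difference CCRF-CEM minus HPB-ALL (horizontal axis) with its standard error (bars) for the 4 genes (black diamonds, no test) and the 48 other tested genes of the glycolysis and hypoxia lists, sorted by size. Red points passed an adjusted p of 0.05 in limma: ANKRD37 and MPC2 to the right of 0 and 12 genes to the left of it, while VEGFA and BNIP3 lie at the lower end.

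The rest of the pathway was followed through 7 lists of 114 further genes, of which 64 were on the array under their symbol and 48 were tested. Between the lines 14 of the 48 (29.2%) passed limma's adjusted p of 0.05, near the 32.5% of all tested genes. By direction, 12 (25.0%) were lower in CCRF-CEM, beside 17.6% of all tested genes. The other 2 (4.17%) were higher, beside the remainder of the 32.5% called over all tested genes. The 12 genes lower in CCRF-CEM included the inhibitor of glycolysis TIGAR (-0.90 ± 0.12 SE, adjusted p = 0.000505), PDP1, a phosphatase that activates pyruvate dehydrogenase (-0.89 ± 0.12, adjusted p = 0.000396), and the glycolytic enzyme TPI1 (-0.44 ± 0.12, adjusted p = 0.0231). In oxygen sensing, EGLN1, the hydroxylase that marks HIF1A (-0.43 ± 0.14, adjusted p = 0.0467), and ARNT, the partner of HIF1A (-0.40 ± 0.10, adjusted p = 0.0151), were lower in CCRF-CEM. Hypoxia targets outside glycolysis had 4 lower genes, among them the heme-degrading enzyme HMOX1 (-1.10 ± 0.28, adjusted p = 0.0136) and DDIT4, an inhibitor of mTOR signalling (-1.04 ± 0.25, adjusted p = 0.0113), and 1 higher, ANKRD37 (0.51 ± 0.12, adjusted p = 0.011). In untransduced cells alone DDIT4 had 9.88 for CCRF-CEM and 9.83 for HPB-ALL, and HMOX1 had 5.33 and 5.51, so their gap lay in the transduced arrays. Among mitophagy genes, the autophagy receptor SQSTM1 (-1.05 ± 0.12, adjusted p = 0.000142) and GABARAPL1, which joins autophagosome membranes (-1.08 ± 0.18, adjusted p = 0.00127), were lower in CCRF-CEM. MPC2, a subunit of the mitochondrial pyruvate carrier, was higher (0.35 ± 0.10, adjusted p = 0.022). Without the scramble array of CCRF-CEM, or without that of HPB-ALL, 8 of the 48 passed. The calls of EGLN1 and of PINK1, a mitophagy kinase (-0.36 ± 0.12, adjusted p = 0.048), each held under 3 of 7 other settings and in 1 of 8 omissions of an array, and those of TPI1 and MPC2 in 3 and 2 of the 8.

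The closest relatives of the 4 genes did not share their gap between the lines. The limma difference CCRF-CEM minus HPB-ALL was 0.20 ± 0.13 (SE) for HK1, the other broadly expressed hexokinase, -0.03 ± 0.10 for LDHB, the subunit of lactate dehydrogenase found with LDHA, 0.10 ± 0.16 for BNIP3L, the mitophagy receptor related to BNIP3, and 0.07 ± 0.11 for VEGFB, a VEGFA relative, and none was called. HK1 had 7.84, 7.82, 7.82 and 7.36 in the shTOX-1, shTOX-2, scramble and untransduced arrays of CCRF-CEM, while the HPB-ALL values were 7.46, 7.40, 8.03 and 7.15. In the same order of constructs, BNIP3L had 10.80, 11.12, 11.01 and 11.29 in CCRF-CEM, while HPB-ALL had 10.85, 10.61, 11.50 and 10.86. LDHB had 9.42, 9.43, 9.53 and 9.18 in CCRF-CEM, while HPB-ALL had 9.51, 9.48, 9.49 and 9.21. VEGFB had 7.74, 7.63, 7.83 and 7.65 in CCRF-CEM, while HPB-ALL had 7.70, 7.45, 7.84 and 7.59. Thus HK1, BNIP3L and VEGFB, but not LDHB, had their highest HPB-ALL value in the scramble array, as 21.8% of all tested genes did.

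**Figure D3:**
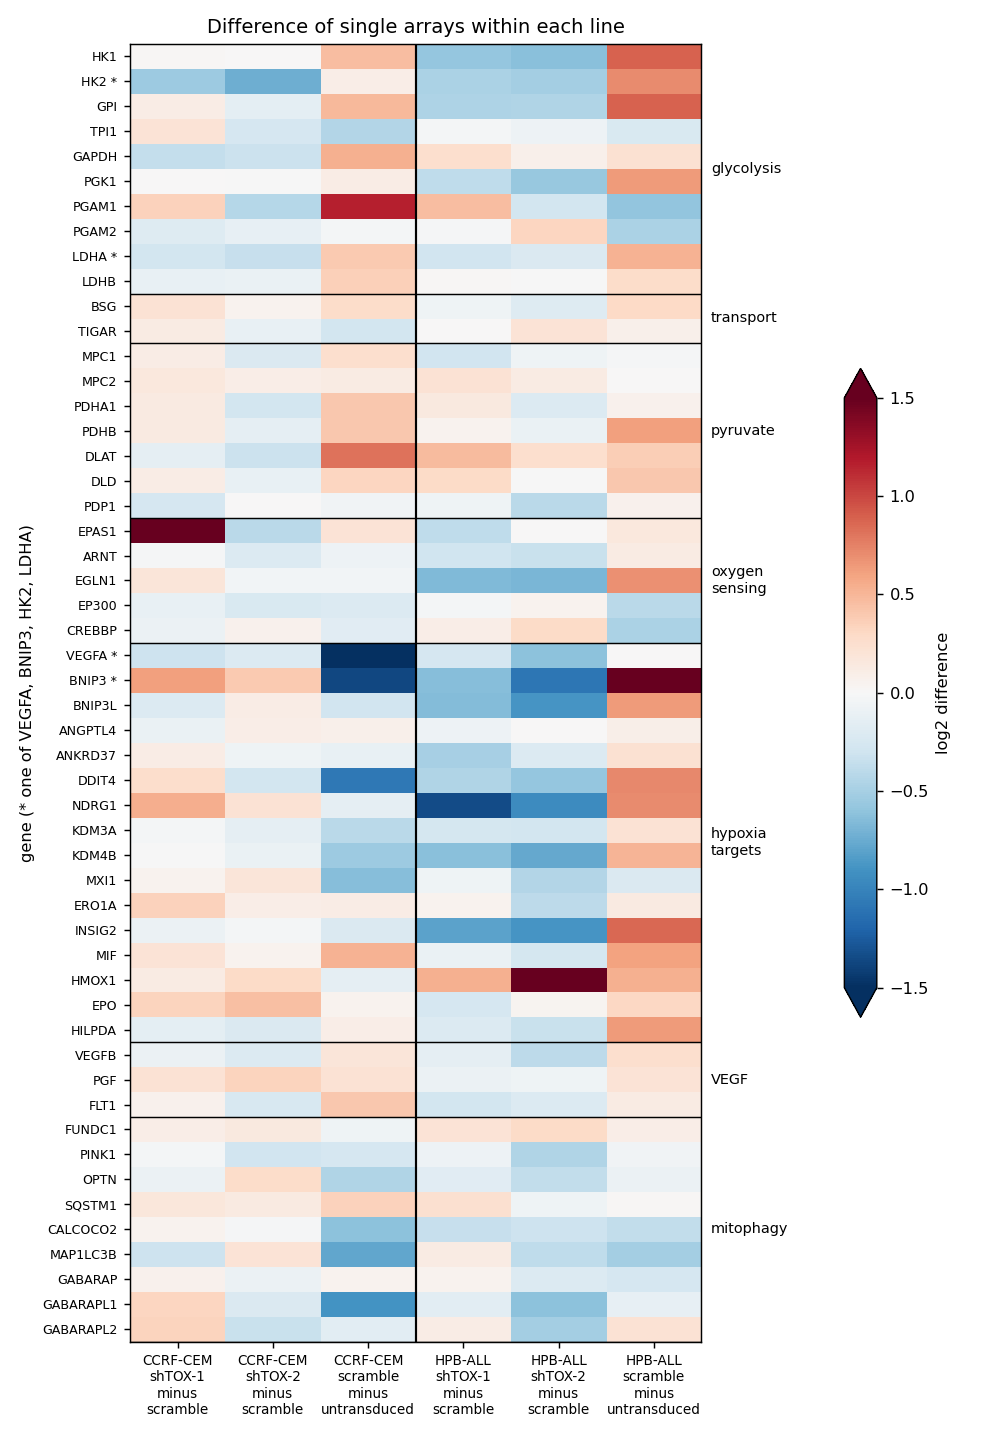
Log2 differences between single arrays of the same line (columns; colour scale cut at 1.5 either way) for the 52 tested genes of the 7 lists (rows, grouped by list at the right; stars mark the 4 genes). In HPB-ALL, the hypoxia targets are mostly blue for shTOX minus scramble and red for scramble minus untransduced; in CCRF-CEM they are mixed.

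Compared with scramble, shTOX arrays showed lower values of most hypoxia targets in HPB-ALL and no common direction in CCRF-CEM. Of the 14 tested hypoxia targets outside glycolysis other than BNIP3 and VEGFA, 12 lay below scramble under each hairpin in HPB-ALL, shTOX-1 and shTOX-2 having median log2 differences of -0.25 and -0.36 beside 0.05 and 0.01 over all tested genes. In CCRF-CEM, 6 of 14 were below scramble with shTOX-1 and 6 with shTOX-2, again not the same genes. There BNIP3L and ANGPTL4 were below it with shTOX-1 only, and ANKRD37 and DDIT4 with shTOX-2 only. The CCRF-CEM medians over the 14 were 0.08 and 0.07, beside 0.04 and -0.03 over all genes. Every HPB-ALL difference here is taken against the same single scramble array. Set against the untransduced HPB-ALL array instead, these targets went both ways. The shTOX-1 and shTOX-2 differences from it were 0.50 and 0.34 for MIF, and -0.63 and -0.23 for NDRG1. None of the 48 pathway genes was called by limma for shTOX against scramble, nor for the difference of that value between the lines. By unadjusted p under 0.05, INSIG2, a regulator of sterol synthesis that hypoxia induces, alone passed for shTOX against scramble (-0.45 ± 0.20 SE, adjusted p = 0.93), which is 2.08% of the 48, beside 5.14% of all tested genes. For the difference between the lines, 6 of the 48 (12.5%) passed it, beside 8.9% of all tested genes, among them NDRG1, a gene induced by low oxygen and by differentiation (1.53 ± 0.34, adjusted p = 0.471), and BNIP3L (0.72 ± 0.30, adjusted p = 0.557). NDRG1 had 7.28, 6.96, 6.73 and 6.86 in the shTOX-1, shTOX-2, scramble and untransduced arrays of CCRF-CEM, while the HPB-ALL values were 6.56, 6.96, 7.90 and 7.20. Like BNIP3, it was lowest with scramble in CCRF-CEM and highest with scramble in HPB-ALL. Markers of other kinds also differed among these arrays: the summed T cell markers were 977, 771, 1469 and 1591 in the shTOX-1, shTOX-2, scramble and untransduced arrays of HPB-ALL, and the 4 measured myeloid markers summed to 94, 319, 200 and 86. In CCRF-CEM the T cell sums were 3732, 3364, 3898 and 4448 and the myeloid sums 94, 89, 70 and 73. The myeloid change in HPB-ALL was carried by MPO, at log2 levels of 5.10, 7.94, 7.03 and 4.83, and the part of these markers in the hypoxia gene values was not tested.

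The HPB-ALL scramble array carried the highest of the 4 HPB-ALL values for HK2, LDHA and BNIP3, and for 20 of the 48 other pathway genes (41.7%), where 21.8% of all tested genes had it. Among hypoxia targets it did so for 10 of 14: BNIP3L, ANGPTL4, ANKRD37, DDIT4, NDRG1, KDM3A, KDM4B, INSIG2, MIF and HILPDA. Of these, ANGPTL4 had 5.29 with scramble and 5.29 with shTOX-2, a tie at this precision and near the filter level of 5.18. Among the 8 other glycolytic enzymes the HPB-ALL scramble array was the highest for HK1, GPI and PGK1. In CCRF-CEM the scramble array was the highest for HK2, LDHA and 5 of the 48 (10.4%), where 19.1% of all tested genes had it. This pattern was looked for after the values of the 4 genes had been seen, and each of these shares rests on 1 scramble array. The scramble minus untransduced median over the 14 hypoxia targets was 0.52 in HPB-ALL, with 13 above 0, and -0.14 in CCRF-CEM, with 5 above 0, beside 0.02 over all tested genes in each line. Without the HPB-ALL scramble array, no difference of shTOX from scramble can be formed in that line.

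Against untransduced cells, 5 of the 48 pathway genes (10.4%) passed for shTOX, near the 11.8% of all tested genes, and 0 passed for scramble, where 9 did so by unadjusted p under 0.05, as did 17.5% of all tested genes. The 3 higher genes were DLAT and PDHB, subunits of the pyruvate dehydrogenase complex (0.66 ± 0.16 SE, adjusted p = 0.0312, and 0.50 ± 0.14, adjusted p = 0.044), and the cytokine MIF (0.53 ± 0.14, adjusted p = 0.0347). The 2 lower genes were CALCOCO2, an autophagy receptor (-0.65 ± 0.13, adjusted p = 0.0161), and MAP1LC3B, which marks autophagosome membranes (-0.73 ± 0.19, adjusted p = 0.0364). With scramble in place of shTOX the same genes differed from untransduced cells by 0.59 for DLAT, 0.51 for PDHB, 0.56 for MIF, -0.49 for CALCOCO2 and -0.65 for MAP1LC3B, none of them called. Of the 16 G2 and mitosis genes, 15 were called higher in shTOX than in untransduced arrays, beside 11.8% of all tested genes called in either direction. Their part in the calls of the 5 pathway genes was not tested. The count of 5 fell to 0 without the untransduced CCRF-CEM array, to 1 without that of HPB-ALL, to 1 and 3 without shTOX-1 and shTOX-2 of CCRF-CEM, and to 2 without either shTOX array of HPB-ALL. CALCOCO2 kept its call in 6 of the 8 omissions and PDHB in 0.

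**Figure D4:**
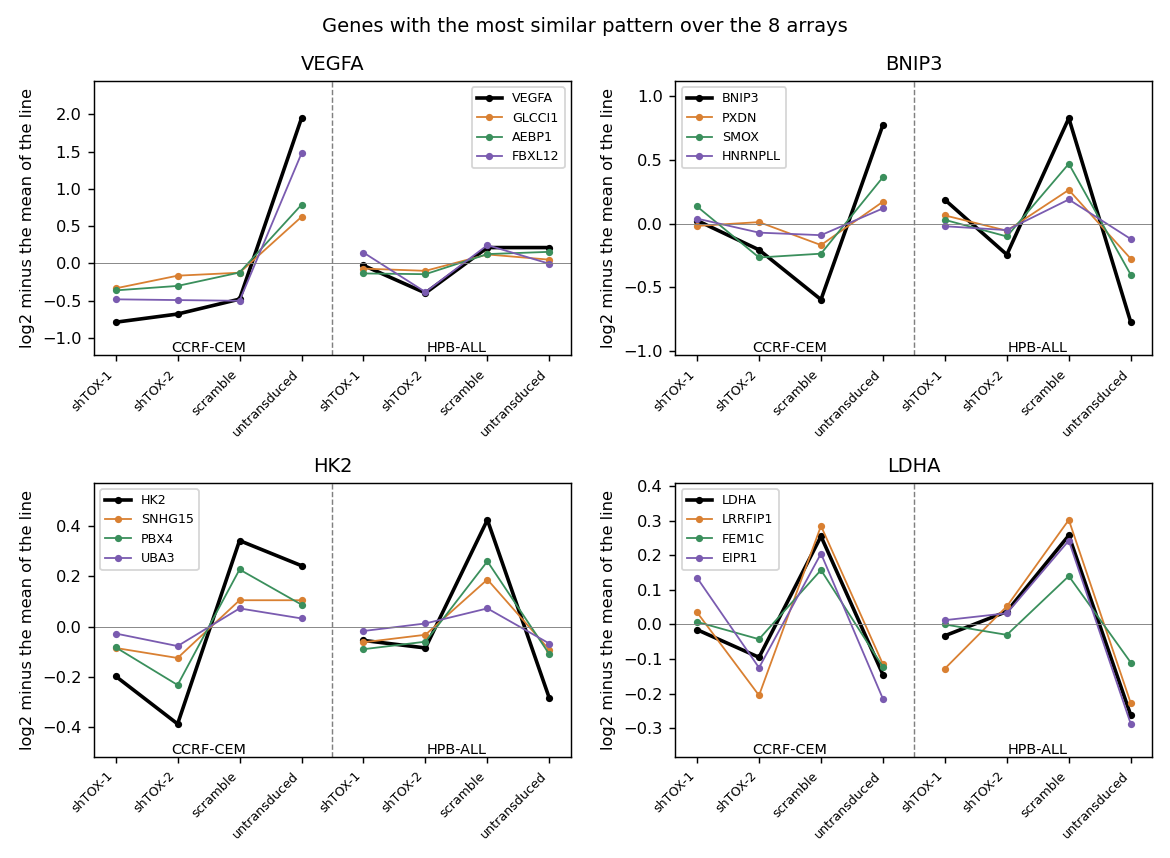
Log2 intensity minus the mean of its line (vertical axis) on the 8 arrays (horizontal axis, CCRF-CEM left and HPB-ALL right of the dashed line) for each of the 4 genes (black) and the 3 genes whose pattern correlated best with it. The VEGFA panel is carried by the untransduced CCRF-CEM array, and the BNIP3 panel by the opposite positions of the scramble and untransduced arrays in the lines.

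The genes with the most similar pattern were found by Pearson's r over the 8 arrays after the mean of each line was subtracted, among 8929 other tested genes, and are given as a description. Closest to VEGFA were GLCCI1 (r = 0.984), AEBP1 (0.984) and FBXL12 (0.983). FBXL12 had 9.42, 9.41, 9.40 and 11.38 in the shTOX-1, shTOX-2, scramble and untransduced arrays of CCRF-CEM, so it too stood apart only in untransduced cells there. Closest to BNIP3 were PXDN (0.971), SMOX (0.960) and HNRNPLL (0.948). SMOX, an enzyme that oxidises spermine, had 7.59, 7.19, 7.22 and 7.82 in CCRF-CEM, while HPB-ALL had 9.50, 9.37, 9.94 and 9.07. Closest to HK2 were SNHG15 (0.979), PBX4 (0.974) and UBA3 (0.960), and closest to LDHA were LRRFIP1 (0.955), FEM1C (0.951) and EIPR1 (0.930). Without the subtraction, r with HK2 was 0.988 for SNHG15, 0.987 for PBX4 and -0.597 for UBA3. Among the 4 genes themselves, r after the subtraction was highest for HK2 with LDHA (0.717) and lowest for VEGFA with LDHA (-0.301). All these values share the same 8 arrays and lean on single arrays.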

How the data were processed

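Gene expression was measured on 8 Affymetrix arrays, 1 for each of 4 constructs in 2 cell lines; RNA was labelled by the GeneChip WT Plus protocol, per the labels. Each probe set has a deposited log2 intensity per array, a scale judged from the range of the values. How the authors corrected background, summarized probes and normalized arrays is not given in the sources used. Of 53617 probe sets, 16098 had 1 gene symbol (all matched to RefSeq by Entrez ID) and 37519 had none and were left out. Genes with several probe sets (779 of 14884) took the brightest, and 8930 genes at or above the 40th percentile of mean level (5.18) were tested.

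Differences came from limma 3.58.1 (lmFit, contrasts.fit, eBayes; R 4.3.3) on all 8 arrays, with treatment and line as terms, or a mean for each line and treatment for the difference between lines. In the fit with a mean for each line and treatment, only the hairpins within a line gave residual spread. The threshold was a two-sided p of 0.05 after Benjamini-Hochberg adjustment over all tested genes; the scripts were tested on simulated data. Values after ± are standard errors unless marked SD. The number of arrays limits the precision.

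The 4 genes, the lists and the comparisons were chosen with earlier results of these data known. From each list and comparison, up to 4 called genes by size were eligible for naming, or up to 3 by smallest p where none was called, besides TOX, 7 named relatives (3 not analysed here) and 3 genes alike per member; genes that met a pattern over the arrays were named after their values were seen. Alternatives were quantile normalization, median centring, other filters, mean probe sets, another variance model, a replicate block and leaving out each array. Scanner files, slides and scan dates were not used here.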

Additional observations from a re-analysis of the deposited data

Results flagged for a closer look

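BNIP3 stood out because both shTOX arrays lay above scramble in CCRF-CEM (mean difference 0.51) and below it in HPB-ALL (-0.86), a gap between the lines of 1.37 on the log2 scale. No p is given for it, since BNIP3 was chosen with these values known, and the gap ranged from 1.15 to 1.58 over the omissions of 1 array that left it estimable.

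Of the 48 other pathway genes, 5 (10.4%) had both hairpins above scramble in CCRF-CEM and below it in HPB-ALL, and 2 (4.17%) the opposite, beside 12.9% and 14.5% of all tested genes. Limma called none of these differences. NDRG1 had the largest, 1.53 (0.39 in CCRF-CEM, -1.14 in HPB-ALL, adjusted p = 0.471). MXI1, a MYC antagonist, had 0.36 (0.11 and -0.25, adjusted p = 0.761), MIF had 0.30 (0.12 and -0.18, adjusted p = 0.767), PGF, a VEGF family member, had 0.36 (0.28 and -0.08, adjusted p = 0.707), and BSG, a chaperone of lactate transporters, had 0.27 (0.13 and -0.13, adjusted p = 0.793). In the opposite direction, the glycolytic enzyme GAPDH had -0.50 (-0.34 in CCRF-CEM, 0.16 in HPB-ALL, adjusted p = 0.621) and DLAT had -0.59 (-0.22 and 0.36, adjusted p = 0.598).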

How the results depend on the processing

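The log2 differences of HK2, LDHA, BNIP3 and VEGFA for shTOX against scramble, against untransduced cells and between the lines kept their sign under the 7 other settings that used all arrays. For the difference between the lines in shTOX minus scramble, which was -0.14 for HK2 and -0.05 for LDHA, quantile normalization gave 0.07 and 0.14, and median centring gave 0.01 for LDHA. Counts moved more. For shTOX against untransduced cells, 3 pathway genes passed with no filter on dim genes, against 5. For scramble against untransduced cells, 162 genes passed with the filter at the 60th percentile, 220 with an intensity trend and robust variances and 9 with a replicate block, against 95, and 2 pathway genes passed with the trend, against 0. For the difference of shTOX minus scramble between the lines, 1 gene passed with no filter, against 0. The cause of these moves was not tested.

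The hairpin numbers name constructs, not a stated pairing: over genes, the deviation of shTOX-1 from the hairpin mean correlated between the lines at 0.225. With the replicate block 1043 genes passed for shTOX against untransduced cells, 2907 between the lines and 0 for shTOX against scramble.

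With each array left out in turn, shTOX against scramble gave 0 genes and 0 pathway genes throughout. Against untransduced cells, shTOX gave 25 to 1080 genes, lowest without the untransduced CCRF-CEM array, with 360 without that of HPB-ALL and 608, 654 and 584 without CCRF-CEM shTOX-1, CCRF-CEM shTOX-2 and HPB-ALL shTOX-2; pathway genes numbered 0 to 4. Scramble against untransduced cells gave 3 to 90 genes and 0 pathway genes; every omission but that of CCRF-CEM shTOX-1 moved the count by over 1.5 times. The lines differed in 2288 to 2554 genes and 8 to 14 pathway genes. The difference between the lines gave 0 to 11 genes (11 without HPB-ALL shTOX-2) and 0 pathway genes, and could not be estimated without a scramble array. Leaving out an array leaves its group with 1 array per line or none, assumed to vary like the others. Background correction and slide could not be varied, and signals near 5.18 limit fold sizes.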

Other observations

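EPAS1, which encodes the HIF-2 alpha subunit, had a log2 level of 8.31 with shTOX-1 in CCRF-CEM, against 5.96 with shTOX-2, 6.36 with scramble and 6.16 in untransduced cells. In HPB-ALL it had 5.32, 5.70, 5.70 and 5.54 in the same order of constructs, so the high value belonged to 1 array. HMOX1 in HPB-ALL had 6.57 with shTOX-1, 7.55 with shTOX-2, 6.04 with scramble and 5.51 in untransduced cells, and in CCRF-CEM 5.30, 5.47, 5.19 and 5.33. Both genes were singled out after their values were seen.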
